A study of Homo sapiens with 6 samples.

Results

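DNAJ proteins, also called J-proteins or HSP40 proteins, are the co-chaperones that bring substrates to HSP70 and start its ATP hydrolysis through their J domain. The members described here are the genes whose symbol is DNAJA, DNAJB or DNAJC followed by a number alone, which gave 42 of the 17170 genes of the deposited table: 4 of class A, 12 of class B and 26 of class C. DNAJB8 is not analysed here. Levels are in TPM, a share of each library's transcripts after division of reads by transcript length, in 3 RNA-seq libraries labelled control. Per the labels, the RNA is from stable cells of NCI-H69, a long-established line of small cell lung cancer. The labels give these cells a non-targeting control sgRNA and a single batch. The labels also describe 3 SCRMP knockout samples of the same line, made with CRISPR/Cas9 aimed at the coding sequence of SCRMP in MIR7-3HG. The table has 0 columns under their names, so levels are described in the control libraries and no groups are compared. The labels call the libraries biological replicates without saying how far back the cultures were separate, so each SD (n = 3) measures the spread between these libraries, which may be technical.

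The cell type label was checked first. Of 6 neuroendocrine markers, 1 was detected, which here means 1 TPM or more in all 3 libraries: NCAM1 at 25.7 TPM ± 3.66, while CHGA, SYP, INSM1, DLL3 and NEUROD1 lay between 0.080 and 0.717 TPM. All 4 mesenchymal markers were detected, led by VIM at 4542 TPM ± 87.8, and 0 of 3 epithelial markers were. Endothelial markers were near 0 (0 of 3 detected, summed level 0.560 to 0.700 TPM per library), and of 2 measured leukocyte markers CORO1A was detected at 7.49 TPM ± 1.03. The data thus go against the label for 5 of 6 neuroendocrine markers, and the levels below are those of the libraries labelled control. The libraries held 20941185, 22309228 and 22477571 estimated reads.

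As background, class A members carry the J domain, a glycine and phenylalanine-rich stretch and a zinc-binding domain as bacterial DnaJ does, class B members lack the zinc-binding domain, and class C members share only the J domain and are otherwise unlike each other. Cytosolic members serve HSPA8 and the heat-inducible HSPA1 proteins, those in the lumen of the endoplasmic reticulum (ER) serve HSPA5 (BiP), and those in the mitochondrial matrix serve HSPA9 (mortalin). Heat shock factors induce some cytosolic members through heat shock elements, and the unfolded protein response induces several ER members.

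Promoter sequences are shown for members whose levels or spread the results turn on. RefSeq windows (GRCh38.p14) that run from 250 bases before to 50 bases after an annotated start were matched by symbol to 38 of the 42 members, with 50 windows because several genes have more than 1 start. DNAJB3, DNAJC1, DNAJC22 and DNAJC24 were not matched. The shorter heat shock element searched has 2 units, GAANNTTC or TTCNNGAA, and the longer has 3, GAANNTTCNNGAA or TTCNNGAANNTTC, which contains the shorter. Both strands were searched, and N is any base. The 3-unit form was found in 0.490% of all 35116 windows, or 0.608% of all 27305 genes, and in 2 members, DNAJA1 and DNAJB6. The 2-unit form was found in 13.5% of all windows, or 16.2% of all genes, and in 8 of the 38 matched members. The next lines give the 150 bases before a start, 5′ to 3′ on the gene's strand, with matches in capitals: 2-unit elements for DNAJB1 (chr19:14518398-14518547, minus strand) and DNAJA4 (chr15:78264412-78264561, plus strand), and the 3-unit element for DNAJB6 (chr7:157336854-157337003, plus strand).
DNAJB1: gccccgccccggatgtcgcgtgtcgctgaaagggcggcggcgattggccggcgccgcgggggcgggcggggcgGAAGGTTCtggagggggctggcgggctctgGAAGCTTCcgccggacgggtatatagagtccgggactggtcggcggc
DNAJA4: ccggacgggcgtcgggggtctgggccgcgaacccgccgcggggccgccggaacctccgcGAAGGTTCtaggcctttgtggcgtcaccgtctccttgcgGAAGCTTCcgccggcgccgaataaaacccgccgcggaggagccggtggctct
DNAJB6: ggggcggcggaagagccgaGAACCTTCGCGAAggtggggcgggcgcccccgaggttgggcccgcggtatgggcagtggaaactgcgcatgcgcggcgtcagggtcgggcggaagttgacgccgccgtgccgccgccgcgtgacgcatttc
DNAJB1 and DNAJA4 are shown together because they hold the same pair of 8-base matches in the same order and stand at opposite ends of the levels. In DNAJB1 the matches begin at positions -77 and -47 from the start, and in DNAJA4 at -91 and -52. In DNAJB6 the match begins at -131. The match of DNAJA1, GAACTTTCCAGAA, lies at positions 4 to 16 after its start. Which starts these cells used was not measured.

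For the ER lumen the CCAAT box, a common promoter motif that is also part of the ER stress element, was searched on both strands (CCAAT, or ATTGG on the other strand). It was found in windows of 15 of the 38 matched members and of 4 of the 4 matched ER lumen members, against 39.7% of all 27305 genes and 34.6% of all windows. The full ER stress element, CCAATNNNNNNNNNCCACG, was found in 0 members and in 0.0769% of all windows, or 0.0916% of all genes. The core TGACGTGG bound by ATF6 and XBP1 was found in 1 member, DNAJC10, and in 0.729% of all windows, or 0.927% of all genes. The lines show the 2 highest ER members, DNAJB11 (chr3:186570570-186570719, plus strand) and DNAJB9 (chr7:108569724-108569873, plus strand), with the CCAAT box in capitals.
DNAJB11: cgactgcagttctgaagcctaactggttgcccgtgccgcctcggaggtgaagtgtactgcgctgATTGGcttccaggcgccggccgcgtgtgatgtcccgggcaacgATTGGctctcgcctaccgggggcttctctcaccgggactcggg
DNAJB9: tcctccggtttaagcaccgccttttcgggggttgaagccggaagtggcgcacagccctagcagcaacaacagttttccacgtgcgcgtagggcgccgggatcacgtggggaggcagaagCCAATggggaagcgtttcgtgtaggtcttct
The box occurs at 2 positions in the stretch of DNAJB11 and at 1 in that of DNAJB9. A match describes the letters only.

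Most members were expressed. Detection was reached by 38 of 42 members, against 66.5% of all genes, and a mean of 10 TPM or more by 31 members, against 44.1% of all genes. The median over members was 24.5 TPM ± 1.28 and that over all genes 6.83 TPM ± 0.461, and 33 of the 42 members lay above the median gene. The family summed to 3432, 4214 and 3860 TPM in replicates 1, 2 and 3, which is 0.384% ± 0.0391 of all TPM. DNAJB1 alone held 35.8% ± 6.0 of the family, and the 10 highest members 83.9% ± 2.42. Without DNAJB1 the family summed to 2430, 2487 and 2427 TPM, a spread of 33.9 TPM (SD) against 391 TPM with it. Opposite moves cancel in part within that sum. From replicate 1 to replicate 3, DNAJA1 rose from 299.9 to 432 TPM, while the 10 ER members together fell from 861 to 742 TPM. The members just above the detection minimum were DNAJC28 at 2.31 TPM and DNAJC27 at 2.54 TPM, and the next below was DNAJB13 at 0.913 TPM.

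**Figure D1:**
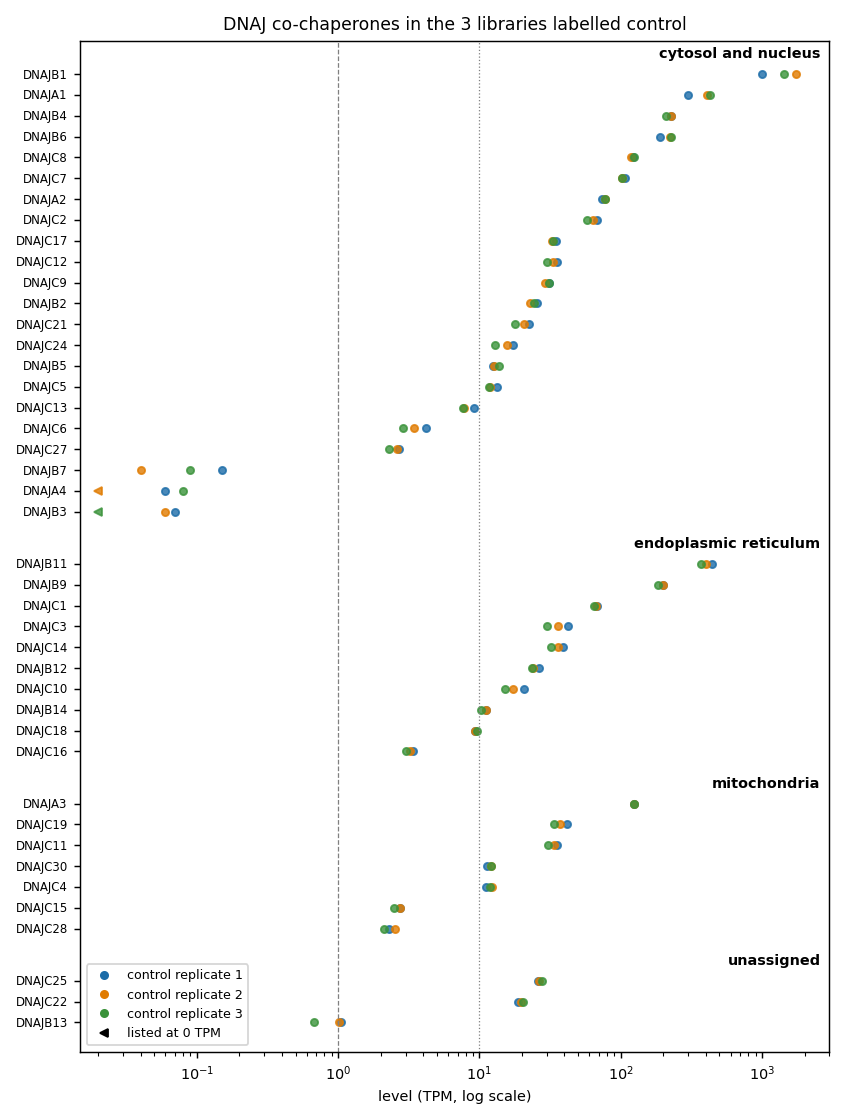
Level of each of the 42 members in TPM (log scale) in control replicates 1, 2 and 3, one row per gene, grouped by compartment and ordered by mean; dashed and dotted lines mark 1 and 10 TPM, and a triangle marks a library in which the gene is listed at 0. DNAJB1 is the highest row, from 1003 to 1727 TPM, and DNAJA4, DNAJB3, DNAJB7 and DNAJB13 are the 4 members that were not detected.

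Class A split into 3 abundant genes and 1 near 0. DNAJA1, a general cytosolic co-chaperone of HSP70 (gene number 3301, chromosome 9, 33025273 to 33039907, GRCh38.p14), had 299.9, 406 and 432 TPM in replicates 1, 2 and 3, a mean of 379 TPM ± 69.9. Replicate 1 was the low library and the other two were close. DNAJA3, the mitochondrial member of the class (Tid1, chromosome 16, 4425868 to 4456775), had 123, 125 and 125 TPM and the smallest coefficient of variation of the 31 members at 10 TPM or more, 0.752%. DNAJA2, the close relative of DNAJA1 (chromosome 16, 46955362 to 46973674), had 73.2, 77.2 and 77.9 TPM. DNAJA1 exceeded it by 4.97-fold ± 0.766, in 3 of 3 libraries. DNAJA4 (chromosome 15, 78264145 to 78282191), the other cytosolic member of the class and known as heat-inducible, had 0.060 TPM in replicate 1, was listed at 0 in replicate 2 and had 0.080 TPM in replicate 3. These rest on 5 reads in all, with an exact Poisson 95% interval of 1.62 to 11.7 reads, which covers counting error only. It is the member whose shown promoter carries the same pair of heat shock matches as DNAJB1.

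In class B the heat-inducible HSP40 gene DNAJB1 (gene number 3337, chromosome 19, 14514769 to 14560391) led by far, with 1003, 1727 and 1432 TPM, a mean of 1387 TPM ± 364. It was ranked 105 among all genes, and even its lowest library exceeded every library of any other member. Its relatives DNAJB4 and DNAJB5 were lower. DNAJB4 (chromosome 1, 77979175 to 78017964) had 226, 229 and 208 TPM, and DNAJB5 (chromosome 9, 34989745 to 34998900) had 12.5, 12.7 and 13.7 TPM. The ratio of DNAJB1 to DNAJB4 was 4.43, 7.55 and 6.88 in the 3 libraries and thus moved with DNAJB1, while the 3 genes kept the same order in each library.

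The other cytosolic B members followed the same split between abundant and silent genes. DNAJB6, a suppressor of polyglutamine aggregation (chromosome 7, 157337004 to 157417439), had 190, 222 and 228 TPM and did not differ beyond the spread between libraries from DNAJB4. DNAJB2, a ubiquitin-binding relative best known from neurons, had 25.7, 22.9 and 24.4 TPM, and DNAJB6 exceeded it by 8.80-fold ± 1.25. The genes known mainly from testis were near 0. DNAJB7 had 0.150, 0.040 and 0.090 TPM from 9 reads in all. DNAJB3 had 0.070 and 0.060 TPM and was listed at 0 in replicate 3, from 2 reads in all. DNAJB13, a component of motile cilia and sperm tails, had 1.05, 1.01 and 0.680 TPM from 41 reads in all, so it passed 1 TPM in 2 of 3 libraries. The 9 detected B members ranged from 10.9 to 1387 TPM.

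Class C was detected throughout, 26 of 26 members, within a narrower range of 2.31 to 121 TPM. Its highest member was DNAJC8, a spliceosome-associated protein (chromosome 1, 28200278 to 28233029), with 121, 118 and 125 TPM. DNAJC7, a TPR protein that works between HSP70 and HSP90 (chromosome 17, 41976435 to 42017439), had 108, 101 and 102 TPM, below DNAJC8 in each library. DNAJC2, which sits on the ribosome together with HSPA14, had 67.6, 63.4 and 57.8 TPM. HSPA14 had 14.5, 13.6 and 14.1 TPM, so DNAJC2 exceeded its partner by 4.48-fold ± 0.319.

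The nuclear and cytosolic C members with dedicated tasks lay lower. DNAJC17, another splicing-associated protein, had 34.8, 32.5 and 33.2 TPM. DNAJC12, the co-chaperone of aromatic amino acid hydroxylases, had 35.4, 33.0 and 30.3 TPM, and the histone H3-H4 chaperone DNAJC9 had 31.3, 29.1 and 31.0 TPM. These 3 genes, together with DNAJC11 and DNAJC14, formed a run in which each gene's range overlapped that of the next. Across the run DNAJC9 lay below DNAJC17 and DNAJC14 in 3 of 3 libraries, with no overlap of ranges. DNAJC21, which acts in maturation of the large ribosomal subunit, had 22.5, 20.6 and 17.8 TPM. DNAJC24, which acts in diphthamide synthesis on elongation factor 2, had 17.3, 15.7 and 13.0 TPM. All 6 other genes of that pathway on the list were detected, against 66.5% of all genes. They ranged from 14.2 TPM (DPH7) to 77.3 TPM (DPH5).

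Members of vesicle traffic were at or below the level of the median member. DNAJC5, the cysteine string protein of secretory and synaptic vesicles, had 13.4, 11.9 and 11.6 TPM. DNAJC13, an endosomal protein known as RME-8, had 9.16, 7.83 and 7.70 TPM. DNAJC6, the auxilin of neurons that uncoats clathrin vesicles, had 4.16, 3.46 and 2.88 TPM. GAK, the widely expressed auxilin with another symbol, had 17.4, 16.1 and 14.6 TPM and exceeded DNAJC6 by 4.63-fold ± 0.447. DNAJC27, a small GTPase with a J domain, was at 2.54 TPM ± 0.204.

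Compared by class, the medians were 100.2 TPM ± 1.74 for A, 24.5 TPM ± 1.36 for B and 20.3 TPM ± 1.29 for C, with 3 of 4, 9 of 12 and 26 of 26 members detected against 66.5% of all genes. On the log2(TPM + 1) scale the median of A lay 2.21 ± 0.12 above that of C, and with means in place of medians the difference was 1.20 ± 0.16. B lay 0.27 ± 0.06 above C, and 3 members of B lay below 1 TPM in at least 1 library. Over the members at 1 TPM or more the difference between B and C was 3.17, and with means over all members it was 0.74. By summed level, B held 64.8% ± 2.70 of the family's TPM, A 15.1% ± 1.16, and class C the rest, with 762 TPM ± 34.6 in all. DNAJB1 made up 55.0% ± 7.15 of class B. Classes overlap widely gene by gene, members are not replicates of a class, and no p-value across genes was computed.

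**Figure D2:**
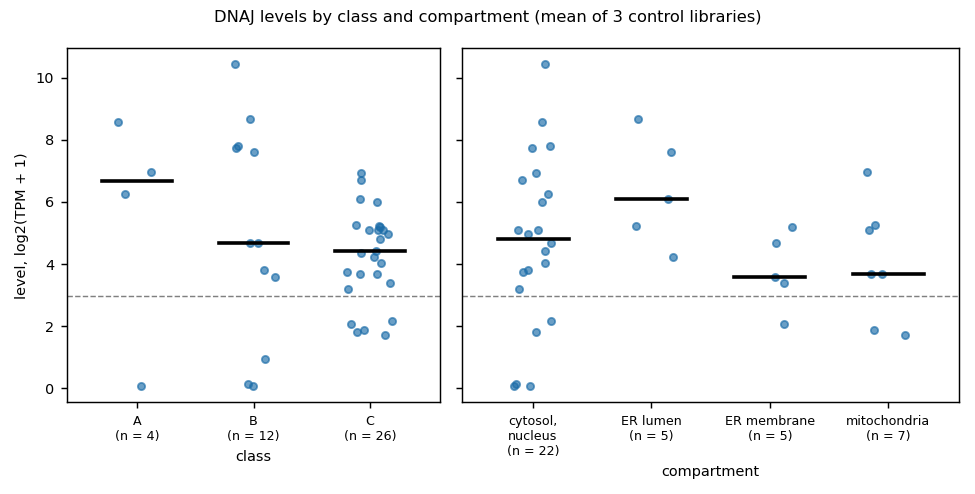
Level of each member as log2(TPM + 1), averaged over the 3 control libraries, by class (left) and by compartment (right); each point is a gene, black bars are medians, the dashed line is the median of all genes, and members of unassigned compartment are left out on the right. The median of class A lies above B and C, and the ER lumen median of 66.7 TPM lies above the other compartments, with wide overlap of the genes.

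Compartments were taken from general knowledge of the proteins: 22 members in cytosol and nucleus, 10 in the ER, 7 in mitochondria, and 3 (DNAJB13, DNAJC22 and DNAJC25) left unassigned. Medians were 27.3 TPM ± 1.26, 29.9 TPM ± 2.89 and 11.9 TPM ± 0.492. Detection was reached by 19 of 22, 10 of 10 and 7 of 7 members, against 66.5% of all genes. On the log2(TPM + 1) scale the mitochondrial median lay at -1.12 ± 0.12 from the cytosolic median, and the means differed by -0.67 ± 0.02. The ER median differed from the cytosolic by 0.11 ± 0.12, which is within the spread between libraries, but this depended on the measure. The difference was -0.15 over members at 1 TPM or more, 0.36 ± 0.07 with means, and 1.06 ± 0.05 with estimated reads, a measure without length correction. By summed level the cytosol and nucleus held 71.7% ± 4.17 of the family, the ER 21.1% ± 3.42 and mitochondria 5.88% ± 0.674. Of the unassigned members, DNAJC25 had 26.1, 26.6 and 27.6 TPM and DNAJC22 had 18.8, 19.6 and 20.3 TPM.

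Within the ER, the 5 members placed by hand among those whose J domain faces the lumen had a higher median than the 5 others. The lumen members had a median of 66.7 TPM ± 1.44, against 10.9 TPM ± 0.447 for the others. Gene by gene the sets overlapped, since DNAJC10 of the lumen, at 17.8 TPM, lay below DNAJC14 (35.7 TPM) and DNAJB12 (24.7 TPM). The TPM of DNAJC10 also depends on the transcript length used, as described below. DNAJB11 (ERdj3), a soluble partner of BiP that binds unfolded substrates (chromosome 3, 186570720 to 186585793), had 442, 401 and 369 TPM and was the second highest member of the family, although its range overlapped that of DNAJA1. DNAJB9 (ERdj4), which is linked to ER-associated degradation and to control of the stress sensor IRE1 (chromosome 7, 108569874 to 108574850), had 199.6, 199.3 and 183 TPM. DNAJB11 exceeded DNAJB9 by 2.08-fold ± 0.115.

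The remaining lumen members were lower. DNAJC1 (ERdj1), a membrane protein that contacts ribosomes (chromosome 10, 21756548 to 22003730), had 67.9, 67.0 and 65.1 TPM. DNAJC3 (p58IPK), known as an inhibitor of the eIF2alpha kinases, had 42.1, 36.2 and 30.0 TPM. DNAJC10 (ERdj5), a disulfide reductase of ER-associated degradation, had 20.8, 17.4 and 15.3 TPM. Each of these 5 genes was highest in replicate 1 and lowest in replicate 3, as were the 3 other ER members at 10 TPM or more, DNAJB12, DNAJB14 and DNAJC14. This order was shared by 40.9% of all genes at 10 TPM or more. For DNAJC1 the coefficient of variation of 2.17% was below the 2.41% that counting alone would give. After the scaling by median ratios described below, 5 of the 8 ER members were highest in replicate 1 and 6 lowest in replicate 3. Over all genes at 10 TPM or more, the scaled shares were 38.6% and 39.3%.

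Members assigned by hand to the ER membrane with the J domain outside the lumen were led by DNAJC14, with 38.9, 36.3 and 32.0 TPM. DNAJB12, which acts in degradation of membrane proteins, had 26.4, 24.0 and 23.7 TPM, and its close relative DNAJB14 had 11.2, 11.1 and 10.3 TPM, so DNAJB12 exceeded DNAJB14 by 2.28-fold ± 0.0999 in TPM and by 1.498-fold ± 0.167 in estimated reads. DNAJC18, of the same subfamily, had 9.24, 9.31 and 9.62 TPM. DNAJC16 was the lowest ER member at 3.40, 3.25 and 3.04 TPM. The side of the membrane on which its J domain lies was not tested here. SEC63, a J-protein of the translocon that has no DNAJ symbol and was placed in neither set of ER members, had 99.3, 88.2 and 73.9 TPM.

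Mitochondrial members had a wide range around 1 dominant gene. DNAJA3 made up 55.6% ± 1.62 of their summed level. DNAJC19 (TIM14), the J-protein of the motor that pulls proteins through the inner membrane, had 41.7, 37.4 and 33.9 TPM (chromosome 3, 180983709 to 180989838). DNAJC15 (MCJ), its paralog that restrains respiratory complex I (chromosome 13, 43023586 to 43114213), had 2.74, 2.74 and 2.47 TPM. DNAJC19 exceeded DNAJC15 by 14.2-fold ± 0.90 in TPM, but by 2.64-fold ± 0.152 in estimated reads, which are not divided by length. The 6 other genes of the import motor and channel on the list were all detected, against 66.5% of all genes. Their median was 120 TPM ± 2.85, and they include PAM16, the J-like partner of DNAJC19, at 122 TPM ± 1.42.

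DNAJC11, which associates with the MICOS complex that shapes the cristae, had 35.2, 33.5 and 30.8 TPM. Of 10 listed genes for MICOS and its outer membrane partners 10 were detected, against 66.5% of all genes. Their median was 90.6 TPM ± 1.67. DNAJC30, which takes part in the turnover of complex I subunits, had 11.39, 12.16 and 12.02 TPM. DNAJC4 had 11.1, 12.4 and 11.9 TPM, and DNAJC28 was the lowest at 2.30, 2.53 and 2.11 TPM. DNAJC30 and DNAJC4 did not differ beyond the spread between libraries. HSCB, the J-protein of iron-sulfur cluster assembly with its own symbol, had 20.8 TPM ± 0.110.

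Each compartment held more HSP70 than DNAJ transcripts. In cytosol and nucleus, 7 HSP70 genes summed to 4380, 6498 and 5645 TPM and the 22 members to 2297, 3136 and 2851 TPM, a ratio of 1.99 ± 0.0829. In the ER, HSPA5 and HSPA13 summed to 3137, 2994 and 2640 TPM and the 10 members to 861, 805 and 742 TPM, a ratio of 3.64 ± 0.0801. Over only the 5 members whose J domain faces the lumen, the ratio was 4.07 ± 0.0849. In mitochondria, HSPA9 had 632, 629 and 617 TPM and the 7 members 228, 225 and 218 TPM, a ratio of 2.80 ± 0.0286. The 3 ratios over all members of a compartment did not overlap between compartments in any library. The cytosolic ratio rests on DNAJB1: without it the ratio was 3.38, 4.61 and 3.98. These are ratios of transcripts, and HSPA1A and HSPA1B are near-identical copies whose reads can go to either.

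**Figure D3:**
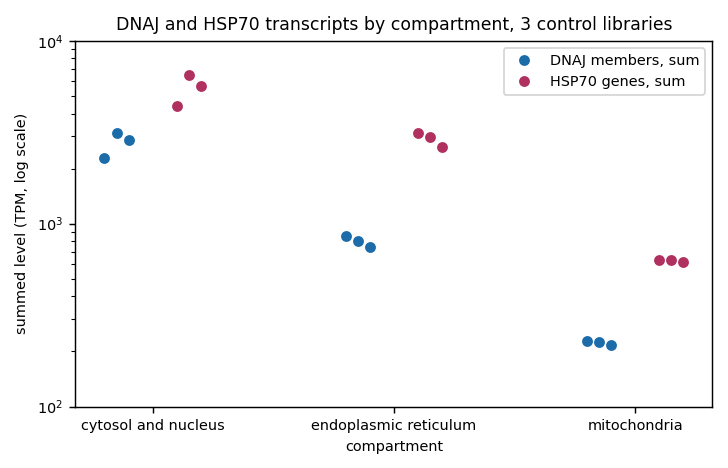
Summed level (TPM, log scale) of DNAJ members and of HSP70 genes in each compartment, with replicates 1, 2 and 3 from left to right within each group of points. HSP70 transcripts exceed DNAJ transcripts in all 3 compartments, by 1.99-fold in cytosol and nucleus, 3.64-fold in the ER (all 10 members) and 2.80-fold in mitochondria.

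The spread between libraries was uneven across members. Among the 31 members at 10 TPM or more, the median coefficient of variation was 5.75%, against 6.11% for all 7577 genes at that level. Counting alone would give a median of 2.75% for these members. It exceeded 15% in 4 of the 31 members, against 7.07% of all genes at 10 TPM or more: DNAJB1 (26.2%), DNAJA1 (18.4%), DNAJC3 (16.7%) and DNAJC10 (15.7%).

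DNAJB1 and DNAJA1 were low in replicate 1. DNAJB1 was 1.72-fold higher in replicate 2 than in replicate 1, and DNAJA1 1.35-fold. DNAJB6 was also lowest in replicate 1. Over all genes at 10 TPM or more, 23.1% were lowest and 54.6% highest in replicate 1. Of the 10 listed HSP70 genes, 7 of which reached 10 TPM, 4 were lowest in replicate 1 and 5 highest there. Of the 14 exchange factors, 6 were lowest and 6 highest there. Those lowest in replicate 1 include HSPA1B with 1777, 3020 and 2294 TPM, HSPA6, the strictly inducible HSP70, with 54.7, 116 and 77.8 TPM, HSPA8 with 2529, 3342 and 3255 TPM, and the exchange factor BAG3 with 35.3, 54.9 and 58.3 TPM. The ratio of HSPA1B to DNAJB1 stayed between 1.60 and 1.77. Of the 6 listed heat shock factors and targets, 4 were lowest in replicate 1, and of the 31 members 10 were, against 23.1% of all genes at 10 TPM or more. The 10 comprise DNAJA1, DNAJA2, DNAJA3, DNAJB1, DNAJB5, DNAJB6, DNAJC4, DNAJC22, DNAJC25 and DNAJC30, so all 3 class A genes at that level are among them, and the same 3 were highest in replicate 3, against 27.9% of all genes. For DNAJA3, DNAJB5, DNAJC4, DNAJC22, DNAJC25 and DNAJC30 the spread was below that of counting alone (0.752% against 1.57% for DNAJA3), so their order of libraries is not resolved. The spread exceeded counting in 23 of the 31 members. After scaling by each library's median ratio over genes at 10 TPM or more, added after seeing the data, 12 members were lowest in replicate 1, against 38.5% of genes. The part of this shared library in the spread of the members was not tested.

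The ER members had another order, which many genes shared. Of the 31 members, 19 were highest in replicate 1 and 16 lowest in replicate 3, and 15 were both, against 40.9% of all genes at 10 TPM or more. The 15 hold all 8 ER members at that level, 5 in the cytosol and nucleus (DNAJC2, DNAJC5, DNAJC12, DNAJC21 and DNAJC24) and 2 in mitochondria (DNAJC11 and DNAJC19). All 5 lumen members were highest in replicate 1, against 54.6% of all genes at 10 TPM or more, and all 5 were lowest in replicate 3, against 51.5%, although the spread of DNAJC1 was below that of counting alone. Of 11 listed genes of the unfolded protein response, 8 were highest in replicate 1 and 8 lowest in replicate 3, among them SDF2L1 (206, 175 and 160 TPM) and CALR (3311, 3278 and 2768 TPM). The other way went DDIT3 (840, 984 and 952 TPM) and HERPUD1 (432, 442.5 and 468 TPM), the 2 of the 11 that were lowest in replicate 1. Because most genes leaned the same way, the same scaling was applied. The lumen members highest in replicate 1 then numbered 3 of 5 (DNAJB11, DNAJC3 and DNAJC10), against 38.6% of genes, and 4 of 5 were lowest in replicate 3, against 39.3%. Of the 11 listed genes of the unfolded protein response, 6 were then highest in replicate 1 and 8 lowest in replicate 3. CALR was among the 4 then highest in replicate 2. With 3 libraries of 1 group, these are descriptions and not a comparison of conditions.

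**Figure D4:**
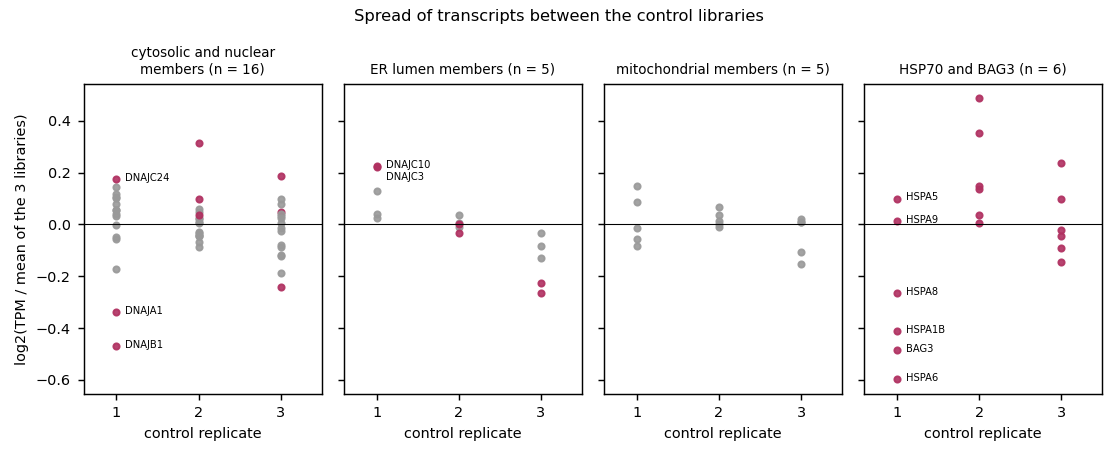
Level in each control replicate relative to the gene's mean over the 3 libraries (log2), for members at 10 TPM or more in the cytosol and nucleus, the ER lumen and mitochondria, and for 6 partner genes chosen after their values were seen; red points are members more than 0.2 from their mean in any library and the partner genes. DNAJB1 and DNAJA1 lie low in replicate 1 as do HSPA8, HSPA1B, HSPA6 and BAG3, whereas HSPA5 lies above its mean there and the 5 mitochondrial members lie within 0.2 of their means.

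The level of a member also depends on the transcript length by which its reads were divided. DNAJC10 had 4504 estimated reads per library on average, which ranks 6 among the members, but was ranked 25 by TPM. It took 252.8 reads to make 1 TPM of DNAJC10, the highest number among all 7577 genes at 10 TPM or more, whose median was 32.3. In GENCODE release 29 its coding transcripts range from 888 to 20129 nt, and its reads per TPM came to 12.6 for each kilobase of the longest. Over the 11 members with 1 coding transcript in that release the same figure had a median of 12.3 and ranged from 9.37 (DNAJC9) to 18.4 (DNAJC24). DNAJC15 has 1 annotated coding transcript of 7853 nt and 93.6 reads per TPM, and DNAJC19 a longest of 1454 nt and 17.4 reads per TPM. Which isoforms were present was not tested.

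**Figure D5:**
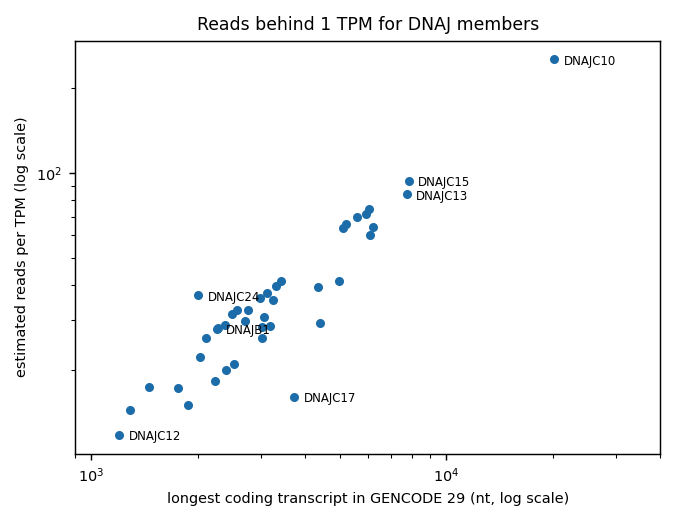
Estimated reads behind 1 TPM (log scale) against the longest coding transcript in GENCODE release 29 (nt, log scale), one point per member with such a transcript. Reads per TPM grow with length, and DNAJC10 stands apart at 252.8 reads per TPM and 20129 nt.

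Some members share sequence or position with other genes. Pseudogenes named after 5 of the 42 members are annotated, 9 for DNAJC19 and 6 for DNAJA1, and 18 members overlap another coding gene in GENCODE release 29. DNAJC25 overlaps the read-through gene DNAJC25-GNG10 on the same strand, and DNAJC9 overlaps MRPS16. The libraries keep the strand, per the labels' protocols, but no source used here says whether counting used it, so the levels of these members are less certain.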

How the data were processed

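RNA-seq of poly(A) RNA was made strand-specific and sequenced on a DNBSEQ-T7 by BGI, per the labels' protocols. Per the submitters' processing notes the tools were HISAT2, StringTie and DESeq2 and the build GRCh38, with no version or role stated. The authors deposited TPM, FPKM and estimated counts per library, per the file headers, and 24.0% of the estimated counts are whole numbers (within 0.005). For the annotation and the FPKM scaling total: not given in the sources used here. Columns were given to samples by name, and 12 per-sample columns with a prefix that matches no label were used in no step.

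Members were found by symbol, and their positions by gene number in RefSeq (42 of 42). Medians over members were taken in each library on the TPM scale and averaged. Class or compartment differences were taken in each library between medians on the log2(TPM + 1) scale and averaged. No test was run, since there is 1 group and genes are not replicates. The comparison and the motif search were tested on simulated data. The members and lists were chosen with earlier results of these data known. Named are the 3 highest and the lowest member per class and compartment, members listed at 0, the extremes of the coefficient of variation, close paralogs, and genes of fixed partner lists; other members were added for completeness, and DNAJC10 and DNAJC15 were singled out for length after their values were seen. Genes with few reads carry a large counting error. Alternatives were FPKM, estimated counts, a minimum on low values, a pseudocount of 0.1, means, lumen members only and leaving out each library. Tables were computed with numpy 2.4.6 and pandas 2.3.3 under Python 3.11.15, intervals with scipy 1.17.1, and plots with matplotlib 3.10.9. Compartments were assigned by hand from general knowledge.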

Additional observations from a re-analysis of the deposited data

How the results depend on the processing

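No paired analysis was possible because the knockout samples have no column under their names and only control libraries were described. Members detected numbered 33 with a minimum of 5 TPM and 39 with at least 10 estimated reads, against 38; leaving out 1 library gave 38 to 39. Differences are on the log2 scale. The DNAJ median lay 1.70 above the all-gene median, 1.61 with FPKM, 1.28 with estimated reads scaled to equal totals, 0.62 over genes at 1 TPM or more, 1.83 with a pseudocount of 0.1 and 1.57 with means (1.68 to 1.72 without each library). Class A minus C was 2.21, 2.34 with estimated reads, 2.56 at 1 TPM or more and 1.20 with means (2.16 to 2.27 without each library). Class B minus C was 0.27, 3.17 at 1 TPM or more and 0.74 with means (0.24 to 0.29). ER minus cytosol and nucleus was 0.11, 1.06 with estimated reads, -0.15 at 1 TPM or more, 0.36 with means and 1.27 with lumen members only (0.07 to 0.18). Mitochondria minus cytosol and nucleus was -1.12, -1.38 at 1 TPM or more and -0.67 with means (-1.18 to -1.06). The minimum of 1 TPM removes DNAJA4, DNAJB3 and DNAJB7 from the cytosol and DNAJB3, DNAJB7 and DNAJB13 from class B. For other settings the cause was not tested. Scaling by median ratios, added after seeing the data, moved none of these 6 results beyond the spread between libraries. Lumen members highest in replicate 1 numbered 5, and 3 with that scaling, with FPKM or with estimated reads; those lowest in replicate 3 numbered 5, 4, 5 and 5.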

Other observations

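DNAJC5G, a testis relative of DNAJC5 whose symbol falls outside the naming rule, was at 0.223 TPM ± 0.103 from 14 reads in all. Nucleotide exchange factors, which release ADP from HSP70, were detected in 14 of 14 cases, against 66.5% of all genes. Their median was 46.7 TPM ± 5.32. The ER factor HYOU1 was highest at 263 TPM ± 33.1, and the cytosolic factor HSPH1 had 161 TPM ± 25.1. In mitochondria, GRPEL2 had 38.5 TPM ± 3.06 and GRPEL1 29.4 TPM ± 1.67, and GRPEL2 was the higher in 3 of 3 libraries.

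HSP90 genes were abundant in each compartment: HSP90AB1 (2237 TPM ± 217) and HSP90AA1 (1759 TPM ± 246) in the cytosol, HSP90B1 (914 TPM ± 130) in the ER and TRAP1 (230 TPM ± 10.8) in mitochondria. HSP90AA1 was lowest in replicate 1 (1503, 1993 and 1780 TPM), as was DNAJB1, against 23.1% of all genes at 10 TPM or more. HSP90B1 was highest there (1035, 931 and 777 TPM), as were the 5 ER lumen members, against 54.6% of those genes. With FPKM, estimated reads or scaling by median ratios, 3 of the 5 lumen members were highest there.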
